A study of Mus musculus with 9 samples.

Results

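The genes described here are 10 members of the bone morphogenetic protein (BMP) and activin pathways in the embryonic mouse hindgut. They are the ligand genes Bmp2, Bmp4, Bmp5, Bmp7 and Inhba, the antagonist genes Nog and Grem1, and the target genes Id1, Id2 and Id3. All probe sets whose platform annotation named only 1 of these symbols were taken, which gave 17 of the 45037 probe sets of the array other than controls. Of the 10 genes, Bmp5, Bmp7 and Id2 were read by 3 probe sets each, Inhba by 2 and the others by 1. The members were not chosen by a threshold on their values, but earlier results of these data were known when they were chosen.

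RNA of the terminal colon, given as hindgut cells in the tissue label, of embryonic day 14 mice (14.5 in the series text) was hybridised to 9 Affymetrix arrays, 3 per genotype. Ednrb null embryos were homozygous for a lacZ allele of Ednrb, the gene of endothelin receptor B. Ednrb NCC null embryos were labelled as mutant in NCC cells and titled Ednrb-FLEX. The promoter that limits the mutation to those cells is not given in the sources used here. Wild type embryos were the controls of both mutants, and whether an array held 1 embryo or a pool is not stated. Strain and sex are not given in the labels either, so the p-values cover just the spread among these arrays, part of which may be technical.

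BMPs and activins are secreted dimers of the TGF-beta superfamily. BMPs act through type I and type II receptor kinases on Smad1, Smad5 and Smad9, and activins act on Smad2 and Smad3. Noggin and gremlin bind BMPs outside the cell and keep them from their receptors, while the Id genes, which encode inhibitors of basic helix-loop-helix factors, are switched on by BMP signals in many cells. In the developing gut, Bmp4 is made by the mesenchyme around the epithelium. In chick and mouse, BMP signalling affects how neural crest cells of the gut, which form its neurons and glia, migrate and gather into ganglia.

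Values are log2 intensities, 1 per probe set and array, and a difference of 1 is a 2-fold change. Differences were tested with limma over all 45037 probe sets, and a probe set was called at a Benjamini-Hochberg adjusted p under 0.05. Ednrb itself, by its brightest probe set, had log2 intensities of 8.77 to 9.40 in Ednrb null, 11.04 to 11.32 in Ednrb NCC null and 10.95 to 11.08 in wild type. Genes of the gut marker lists varied in brightness. Mean log2 intensities over the 9 arrays were 12.16 for Hoxd13, 11.97 for Foxf1, 14.35 for Acta2 and 11.80 for Cdh1. They were 6.45 for Hoxa13, 6.75 for Foxl1 and 6.71 for Cdx2. Of 8 markers listed for enteric crest and neurons, 5 were measured. All 5 were lower in either mutant than in wild type, and 4 of these 5 were called in each comparison. The log2 of the summed intensity of the 5 lay at 8.37 to 9.01 in Ednrb null, 8.61 to 8.95 in Ednrb NCC null and 10.29 to 11.36 in wild type. Wild type 1B stood apart on markers of the mesothelium, the outer lining of the gut, with a log2 intensity of Upk3b of 6.04, against 9.76 and 9.30 in wild type 1C and 1D, and of Bnc1 of 6.71, against 9.55 and 8.94. Calls that changed without that array are given with the gene. In such bulk RNA, fewer cells of a type and less RNA per cell cannot be told apart.

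Among the ligands, Inhba was higher in Ednrb null than in either other group, Bmp4 was lower in Ednrb NCC null than in either other group, and Bmp2 was lower in Ednrb null than in Ednrb NCC null. A probe set of Bmp7 was lower in both mutants than in wild type, but the brightest probe set of Bmp7 was not called. None of the antagonist and target genes among the members passed the test in any comparison. In the plot of the brightest probe sets by array, the Ednrb null arrays of Inhba lie above all others. The Ednrb NCC null arrays of Bmp4 lie below all others, and the remaining groups of either gene overlap.

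**Figure D1:**
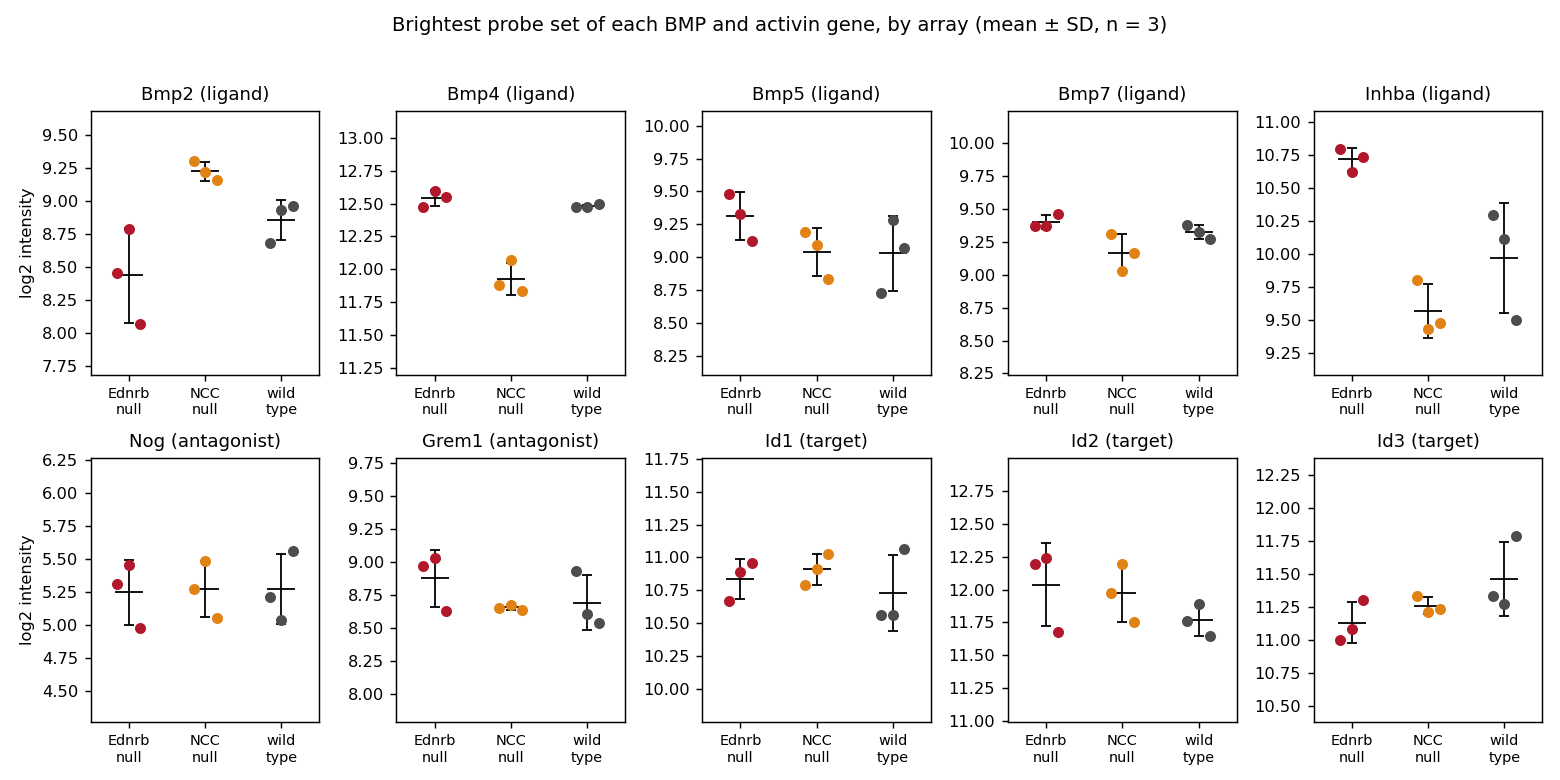
Log2 intensity of the brightest probe set of each of the 10 genes (vertical axis, 2 log2 units high in every panel), by genotype, with a point per array and bars for the mean and SD of 3 arrays. Inhba sits at 10.62 to 10.79 in the 3 Ednrb null arrays, above all other arrays, and Bmp4 sits at 11.83 to 12.07 in the 3 Ednrb NCC null arrays, below all other arrays.

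The windows before the starts of Inhba and Bmp4 are shown because these are the 2 members that were higher in Ednrb null than in Ednrb NCC null. RefSeq's table for GRCm38.p6 held such a window for 6 of the 10 members. Each sequence below covers the 250 bases before the annotated start, and capitals mark any match to a Smad box (CAGAC), a GC-rich Smad motif (GGCGCC) or a TATA box (TATAAA) on either strand. The Inhba window is chr13:16011601-16011850 on the + strand and the Bmp4 window chr14:46390670-46390919 on the - strand.
Inhba: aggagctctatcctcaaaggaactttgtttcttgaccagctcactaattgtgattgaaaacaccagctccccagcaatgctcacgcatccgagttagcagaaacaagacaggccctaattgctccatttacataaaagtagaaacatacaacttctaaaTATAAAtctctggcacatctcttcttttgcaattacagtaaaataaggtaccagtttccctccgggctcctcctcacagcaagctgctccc
Bmp4: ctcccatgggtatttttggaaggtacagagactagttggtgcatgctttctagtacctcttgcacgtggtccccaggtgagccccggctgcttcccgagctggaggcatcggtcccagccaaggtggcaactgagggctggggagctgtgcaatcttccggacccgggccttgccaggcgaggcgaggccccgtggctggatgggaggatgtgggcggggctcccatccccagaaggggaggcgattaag
The Inhba window held 1 TATA box, which 12.4% of the 32851 RefSeq windows of this length hold, and had 43.2% GC, against a median of 52.4% over those windows. The Bmp4 window held none of these motifs and had 63.2% GC. A Smad box occurs in 42.2% of all windows and the GC-rich Smad motif in 9.59%. Of the other members with a window, Grem1 held 1 of each of these Smad motifs, Id2 held 1 GC-rich motif, Id3 held 2 Smad boxes and Bmp5 held 1 Smad box. These matches describe the letters only.

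Inhba encodes the beta A subunit whose dimer is activin A. Its brightest probe set had log2 intensities of 10.79, 10.62 and 10.73 in Ednrb null arrays 29, 37 and 41, of 9.80, 9.43 and 9.47 in Ednrb NCC null arrays 2, 5 and 6, and of 10.29, 10.11 and 9.50 in wild type arrays 1B, 1C and 1D. The Ednrb null arrays lay above all others, and wild type 1D lay within the range of the Ednrb NCC null arrays. Between the mutants the log2 difference was 1.15 (SE 0.18, 95% interval 0.75 to 1.55, limma adjusted p = 0.00551), 2.22-fold higher in Ednrb null. This call held under all 17 alternative settings, with differences of 1.08 to 1.27 when any 1 array was left out.

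Against wild type, Inhba was 1.68-fold higher in Ednrb null (log2 difference 0.75, SE 0.18, limma adjusted p = 0.0383). That call was kept in 8 of 17 alternatives, and the difference was positive in all 17. It was lost without Ednrb null 29, 37 or 41, Ednrb NCC null 5 or 6, or wild type 1D, and the difference was 0.51 without wild type 1D (adjusted p = 0.0554). The Ednrb NCC null arrays differed from wild type by -0.40 (95% interval -0.80 to -0.01, adjusted p = 0.287), and without wild type 1D it was -0.64 and passed (adjusted p = 0.0242). The other Inhba probe set ranked at the 18.8th percentile of mean brightness over all probe sets, and its log2 differences lay between -0.14 and 0.05 with none called.

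Bmp4 had log2 intensities of 12.47, 12.59 and 12.55 in Ednrb null, of 11.88, 12.07 and 11.83 in Ednrb NCC null, and of 12.47, 12.47 and 12.49 in wild type. All 3 Ednrb NCC null arrays were below the lowest array of the other groups, and Ednrb null and wild type overlapped. Bmp4 was 1.47-fold lower in Ednrb NCC null than in wild type (log2 difference -0.55, SE 0.09, limma adjusted p = 0.00598), a call kept in 17 of 17 alternatives. In Ednrb null it was 1.53-fold higher than in Ednrb NCC null (log2 difference 0.61, SE 0.09, adjusted p = 0.00346). Against wild type, the Ednrb null difference was 0.06, with a 95% interval of -0.13 to 0.25 (adjusted p = 0.794).

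Bmp2, a close relative of Bmp4 that uses the same receptors, had the opposite order between the mutants. It had log2 intensities of 8.46, 8.79 and 8.07 in Ednrb null, of 9.30, 9.22 and 9.16 in Ednrb NCC null, and of 8.69, 8.93 and 8.96 in wild type. The Ednrb NCC null arrays were above all others, and the Ednrb null arrays overlapped wild type. Ednrb null was 1.73-fold lower than Ednrb NCC null (log2 difference -0.79, SE 0.16, limma adjusted p = 0.0179), and the call was lost without Ednrb null 29 or any 1 of the 3 Ednrb NCC null arrays (adjusted p from 0.0546 to 0.0661). Against wild type, Bmp2 differed by -0.42 in Ednrb null (adjusted p = 0.18) and by 0.37 in Ednrb NCC null (adjusted p = 0.261). Without Ednrb null 37, the Ednrb null difference was -0.60 and passed (adjusted p = 0.0453).

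The 3 probe sets of Bmp7 differed in their calls, and each is shown in the plot of Bmp7. The brightest, 1435479_at, averaged a log2 intensity of 9.40 ± 0.05 over Ednrb null arrays, 9.17 ± 0.14 over Ednrb NCC null arrays and 9.32 ± 0.05 over wild type arrays (SD, n = 3), and no comparison passed. The next, 1418910_at, had log2 intensities of 7.98, 8.05 and 7.85 in Ednrb null, of 8.04, 7.89 and 7.81 in Ednrb NCC null, and of 8.52, 8.52 and 8.58 in wild type. Both mutants lay below all wild type arrays and overlapped each other. By this probe set Bmp7 was 1.49-fold lower in Ednrb null (log2 difference -0.58, SE 0.09, limma adjusted p = 0.00358) and 1.54-fold lower in Ednrb NCC null (-0.62, SE 0.09, adjusted p = 0.004) than in wild type. Between the mutants it differed by 0.04, with a 95% interval of -0.16 to 0.24.

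**Figure D2:**
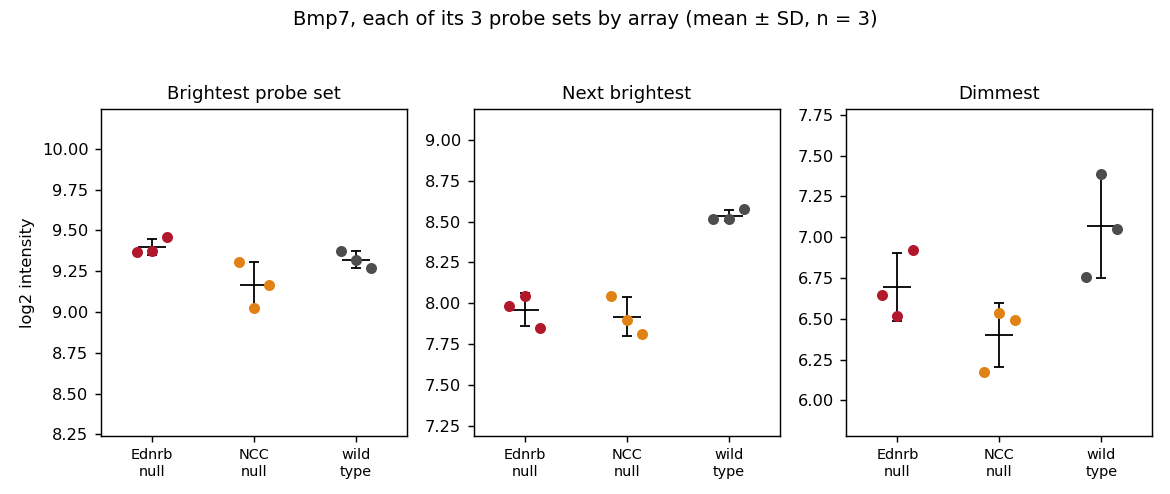
Log2 intensity of each of the 3 Bmp7 probe sets (vertical axis, 2 log2 units high in every panel), by genotype, with a point per array and bars for the mean and SD of 3 arrays. The middle panel has all wild type arrays at 8.52 to 8.58, above the 6 mutant arrays at 7.81 to 8.05, while in the left panel Ednrb null and wild type overlap.

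The dimmest Bmp7 probe set, 1432410_a_at, differed from wild type by -0.37 in Ednrb null (adjusted p = 0.278) and by -0.66 in Ednrb NCC null (adjusted p = 0.0539), and the Ednrb NCC null difference passed in 5 of 16 alternatives, one of them without wild type 1B (-0.82, adjusted p = 0.0391). The probe set 1418910_at was set beside the brightest because 1 was called and the other was not. Within arrays, the log2 value of 1418910_at minus that of the brightest averaged -1.44 ± 0.15 in Ednrb null and -0.78 ± 0.09 in wild type (SD, n = 3 each). Ednrb NCC null averaged -1.25 ± 0.11. Neither mutant overlapped wild type in this measure. A 2-sided exact permutation test gave p = 0.1 for each, the smallest that 3 against 3 arrays allow, so it could not show that the probe sets differ in their change. Which part of the Bmp7 transcript each probe set reads was not examined here.

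Bmp5, another BMP ligand gene, was not called by any of its 3 probe sets. Its brightest had log2 intensities of 9.48, 9.33 and 9.13 in Ednrb null, of 9.19, 9.10 and 8.84 in Ednrb NCC null, and of 8.73, 9.29 and 9.07 in wild type, so the groups overlapped. The 3 probe sets differed by 0.22 to 0.39 between Ednrb null and wild type, with adjusted p from 0.192 to 0.377. Between the mutants they differed by 0.27 to 0.36, with adjusted p from 0.215 to 0.409. Ednrb NCC null differed from wild type by -0.05 to 0.03.

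The antagonist genes gave no call. Grem1 had log2 intensities of 8.97, 9.03 and 8.62 in Ednrb null, of 8.65, 8.68 and 8.64 in Ednrb NCC null, and of 8.93, 8.61 and 8.54 in wild type, and the groups overlapped. Its log2 differences were 0.18 for Ednrb null against wild type (95% interval -0.10 to 0.46), -0.04 for Ednrb NCC null against wild type (-0.32 to 0.25) and 0.22 between the mutants (-0.06 to 0.50). Nog was dim, at the 26.3rd percentile of mean brightness, with log2 intensities of 4.97 to 5.45 in Ednrb null, 5.05 to 5.48 in Ednrb NCC null and 5.03 to 5.56 in wild type. Its 3 differences lay between -0.02 and 0.00, with 95% intervals reaching about 0.4 on either side (-0.39 to 0.34 between the mutants). At this signal a change of Nog could be understated.

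The target genes Id1, Id2 and Id3 were bright and gave no call either. Id1 had log2 intensities of 10.67, 10.89 and 10.96 in Ednrb null, of 10.79, 10.91 and 11.02 in Ednrb NCC null, and of 10.57, 10.56 and 11.07 in wild type. Its 95% intervals were -0.20 to 0.42 for Ednrb null and -0.13 to 0.49 for Ednrb NCC null against wild type. The brightest Id2 probe set averaged a log2 intensity of 12.04 ± 0.31 over Ednrb null arrays, 11.97 ± 0.22 over Ednrb NCC null arrays and 11.77 ± 0.12 over wild type arrays (SD, n = 3). The next Id2 probe set, 1422537_a_at, differed from wild type by 0.33 in Ednrb null, where its arrays did not overlap wild type (adjusted p = 0.172), and by 0.28 in Ednrb NCC null (adjusted p = 0.268). The dimmest Id2 probe set differed by -0.10 and 0.04 in the same comparisons. Id3 averaged 11.13 ± 0.16 over Ednrb null arrays, 11.26 ± 0.06 over Ednrb NCC null arrays and 11.46 ± 0.28 over wild type arrays, with differences from wild type of -0.33 (95% interval -0.63 to -0.04, adjusted p = 0.227) and -0.20 (-0.50 to 0.10, adjusted p = 0.516). The fit thus left room for changes of the Id genes of up to about 0.6 on the log2 scale.

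**Figure D3:**
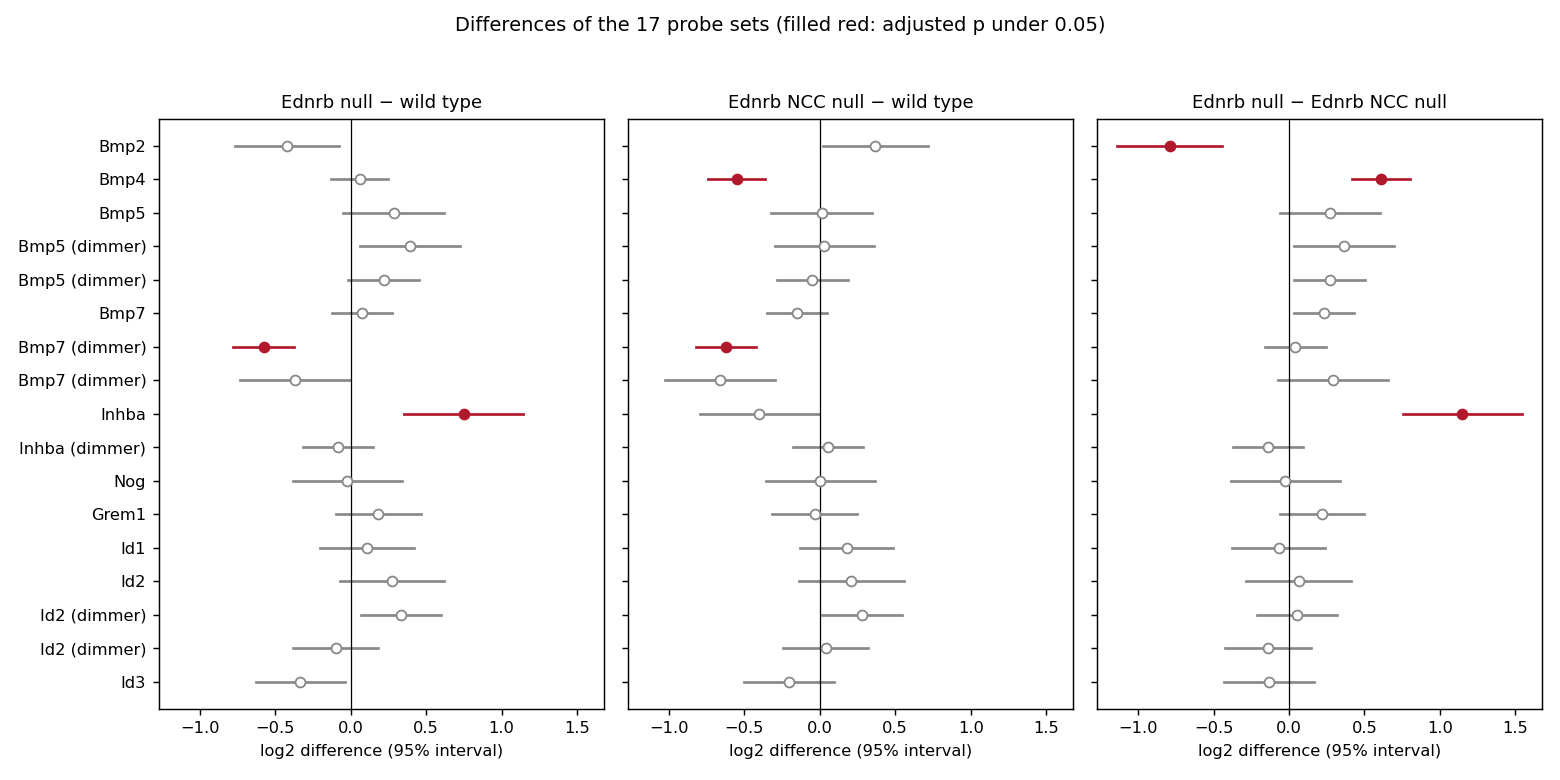
Log2 differences (horizontal axis) of the 17 probe sets with 95% intervals from the limma fit, for Ednrb null minus wild type, Ednrb NCC null minus wild type and Ednrb null minus Ednrb NCC null, with probe sets beyond a gene's brightest marked as dimmer. Filled red points passed at an adjusted p under 0.05: Bmp7 by a dimmer probe set and Inhba in the left panel, Bmp4 and the same Bmp7 probe set in the middle panel, and Bmp2, Bmp4 and Inhba in the right panel.

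As a set, 2 of the 17 probe sets were called in Ednrb null against wild type, against 5.03% of all probe sets. Of these, 1 was higher, against 2.51% of all, and 1 lower, against 2.52%. For Ednrb NCC null against wild type 2 were called, against 3.58%. Both were lower, against 1.51% of all, and none was higher, against 2.06%. Between the mutants 3 were called, against 4.41%, with 2 higher in Ednrb null, against 1.84% of all, and 1 lower, against 2.57%. Counts of 2 and 3 of 17 are small, and no test of the set was made. The members were chosen with earlier results of these data known, so the set was not blind to them. At an unadjusted p under 0.05, 7, 6 and 6 of the 17 passed in the 3 comparisons, against 17.3%, 17% and 17.3% of all probe sets. The ranges of the compared genotypes were separate for 3, 4 and 4 of the 17, against 20.7%, 19.3% and 21.3%. Median log2 differences of the 17 were 0.08, 0.00 and 0.06 in these comparisons, and those of all probe sets were 0.03, 0.01 and 0.02. All the calls were of ligand genes, 5 genes read by 10 of the probe sets. Both comparisons with wild type used the same wild type arrays.

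Other genes of the pathway were described by a list of 67 genes, of which 62 had a probe set naming them alone. That list, too, was chosen with earlier results of these data known. Counts by the brightest probe set of each gene come first, and the calls of other probe sets follow. By the brightest, 4 of the 62 were called in Ednrb null against wild type, against 4.79% of genes. All 4 were lower, against 2.29% of genes, and none was higher, against 2.51%. No brightest probe set of the 62 was called by limma in Ednrb NCC null against wild type, against 3.9% of genes, of which 2.92% were higher and 0.984% lower. Between the mutants 2 of 62 were called, against 5.29%, both lower in Ednrb null, against 3.73%, and none higher, against 1.56%. At an unadjusted p under 0.05, 8, 6 and 11 of the 62 passed in these comparisons, against 18.5%, 18.8% and 18.9% of genes. The ranges were separate for 12, 8 and 12 of the 62, against 22.6%, 21.9% and 24.2%. The median log2 differences of the 62 genes were -0.02, -0.05 and 0.01 in these comparisons, and those of all 18193 genes were 0.04, 0.02 and 0.01.

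Of these genes, 38 had 63 other probe sets, and some of them gave calls that the brightest did not. In Ednrb null against wild type 5 of the 63 were called, all lower, against 5.03% of all probe sets: 2 of Id4 and 1 each of Rgmb, Smad1 and Acvrl1. For Ednrb NCC null against wild type 2 were called, both lower, against 3.58%: 1 of Smad1 and 1 of Bmp1. Between the mutants 1 was higher in Ednrb null, of Bmp1, and 1 lower, of Rgmb, against 4.41% called in either direction.

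**Figure D4:**
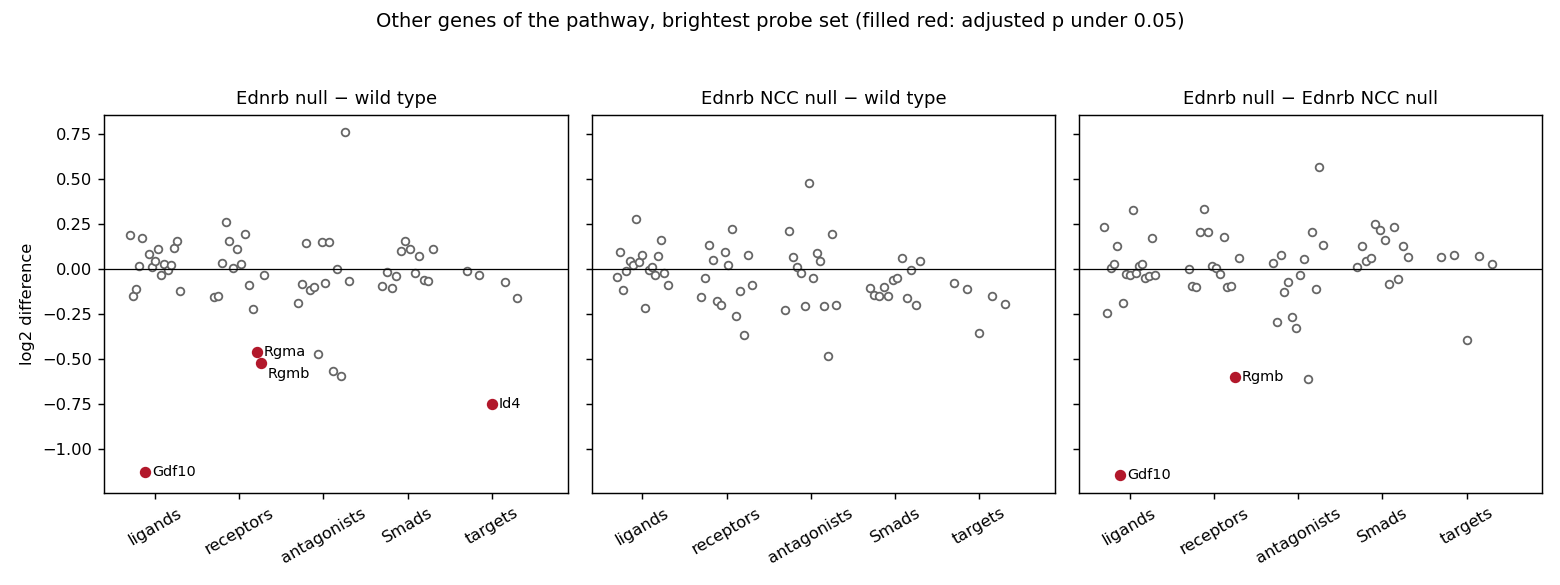
Log2 differences (vertical axis) of the brightest probe set of 62 further pathway genes, grouped as ligands, receptors and co-receptors, secreted antagonists and modulators, Smads with their regulators, and other BMP target genes. Filled red points passed at an adjusted p under 0.05: Gdf10, Rgma, Rgmb and Id4 in the comparison of Ednrb null with wild type, all lower in Ednrb null, and Gdf10 and Rgmb are lower in Ednrb null than in Ednrb NCC null.

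Of 17 further ligand genes, Gdf10 was called and no other, by any probe set. Gdf10, which encodes a BMP3-like ligand, had log2 intensities of 8.63, 8.75 and 8.83 in Ednrb null, of 10.18, 9.83 and 9.64 in Ednrb NCC null, and of 10.12, 9.13 and 10.33 in wild type. The Ednrb null arrays were below all others. Gdf10 was 2.18-fold lower than in wild type (log2 difference -1.13, SE 0.26, limma adjusted p = 0.0296) and 2.22-fold lower than in Ednrb NCC null (-1.15, adjusted p = 0.0312). These calls were kept in 3 of 9 fits without 1 array in each comparison. Against wild type the call was lost without Ednrb null 29, 37 or 41, Ednrb NCC null 5, or wild type 1B or 1D, and between the mutants without any 1 of the 6 mutant arrays.

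Among 14 receptors and co-receptors, the 12 whose brightest probe set did not pass included the BMP receptor genes Bmpr1a and Bmpr2, at 0.03 and -0.09 in Ednrb null and 0.02 and -0.26 in Ednrb NCC null against wild type. They also included Acvrl1, which encodes a type I receptor for BMPs, and its 2 probe sets differed in their calls. Its brightest came to 0.01 in Ednrb null against wild type (adjusted p = 0.983). The other, 1451604_a_at, had log2 intensities of 5.88, 5.86 and 5.84 in Ednrb null, of 6.14, 6.06 and 5.85 in Ednrb NCC null, and of 6.30, 6.40 and 6.36 in wild type. Both mutants lay below wild type by it, with a called difference of -0.49 in Ednrb null (SE 0.09, limma adjusted p = 0.00892) and one of -0.34 in Ednrb NCC null that was not called (adjusted p = 0.071). Rgma and Rgmb, which encode BMP co-receptors also known as guidance molecules of axons, were both called lower in Ednrb null against wild type. Rgma had log2 intensities of 8.38, 8.53 and 8.59 in Ednrb null, of 8.69, 8.49 and 8.61 in Ednrb NCC null, and of 9.04, 8.89 and 8.96 in wild type. It fell by 0.46 in Ednrb null (SE 0.09, limma adjusted p = 0.0153), a call lost without Ednrb null 29 or wild type 1B. For Ednrb NCC null against wild type the difference was -0.37 (adjusted p = 0.0576), although the arrays did not overlap.

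Rgmb had log2 intensities of 9.01, 8.93 and 8.72 in Ednrb null, of 9.73, 9.40 and 9.33 in Ednrb NCC null, and of 9.33, 9.57 and 9.33 in wild type. The Ednrb null arrays were below all others. Its log2 difference was -0.52 from wild type (SE 0.13, limma adjusted p = 0.0402) and -0.60 from Ednrb NCC null (adjusted p = 0.0241). Of its 5 dimmer probe sets, 1433587_at also passed in both comparisons, at -0.48 and -0.47, and the others differed by -0.31 to -0.04 from wild type with none called. Leaving out 1 array kept the call of Rgmb in 2 of 9 fits against wild type (all but those without Ednrb NCC null 2 or 6 lost it) and in 5 of 9 between the mutants (lost without Ednrb null 37 or 41 or Ednrb NCC null 2 or 5).

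Of 14 secreted antagonists and modulators and 12 Smads with their regulators, none was called by its brightest probe set in any comparison with limma. Nbl1, which encodes the BMP antagonist DAN, came to -0.56 in Ednrb null against wild type (adjusted p = 0.0694) and -0.61 against Ednrb NCC null (adjusted p = 0.0543). Fst, which encodes the activin-binding protein follistatin, came to 0.48 in Ednrb NCC null against wild type (adjusted p = 0.0639) and 0.15 in Ednrb null. By their brightest probe sets, the 8 Smad genes differed from wild type by -0.11 to 0.16 in Ednrb null and by -0.16 to 0.06 in Ednrb NCC null.

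A dimmer probe set of Smad1 and one of Bmp1 were called. Smad1, which encodes a Smad that carries BMP signals to the nucleus, had by 1416081_at log2 intensities of 8.06, 8.04 and 7.90 in Ednrb null, of 7.94, 7.82 and 7.89 in Ednrb NCC null, and of 8.43, 8.27 and 8.46 in wild type. All mutant arrays lay below all wild type arrays. The difference from wild type was -0.39 in Ednrb null (SE 0.09, limma adjusted p = 0.03) and -0.51 in Ednrb NCC null (SE 0.09, adjusted p = 0.0111). The brightest Smad1 probe set came to -0.11 and -0.15 in the same comparisons, and the other dimmer one, 1459843_s_at, to -0.13 and -0.16, with none called.

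Bmp1 encodes a protease that cleaves procollagens and the BMP antagonist chordin, and is not itself a BMP ligand. By 1427457_a_at its log2 intensities were 8.38, 8.72 and 8.41 in Ednrb null, 7.89, 7.80 and 7.50 for the Ednrb NCC null arrays, and 8.38, 8.35 and 8.56 in wild type. The Ednrb NCC null arrays were below all others, as for Bmp4. The difference was -0.70 for Ednrb NCC null against wild type (SE 0.13, limma adjusted p = 0.0143) and 0.77 for Ednrb null against Ednrb NCC null (adjusted p = 0.00744). Its brightest probe set came to -0.23 and 0.03 in these comparisons, and its dimmest to -0.14 and 0.22, with none called.

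Of 5 further target genes, Id4 was called and Msx1, Msx2, Atoh8 and Hey1 were not. Id4, the fourth Id gene, had log2 intensities of 10.25, 10.59 and 10.46 in Ednrb null, of 11.09, 10.78 and 10.60 in Ednrb NCC null, and of 11.32, 10.95 and 11.28 in wild type. The Ednrb null arrays were below all others. Id4 fell by 0.75 in Ednrb null against wild type (SE 0.15, limma adjusted p = 0.0124), and its other probe sets also passed, at -0.77 (adjusted p = 0.0206) and -0.68 (adjusted p = 0.0409). Against wild type, Ednrb NCC null had the 3 probe sets at -0.37 to -0.36 with none called, and between the mutants Id4 differed by -0.39 (adjusted p = 0.18). The call in Ednrb null was lost without Ednrb null 29 (-0.66, adjusted p = 0.0603) or wild type 1B (-0.69, adjusted p = 0.0606). Whether Id4 differed from Id1, Id2 and Id3 in its change was not tested.

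Markers of cell types moved in the same comparisons. Beside the falls of Id4, Rgma and the Bmp7 probe set, the crest and neuron markers were lower in both mutants, as given above. Their part in these results was not tested. Beside the difference of Bmp2 between the mutants, all 6 smooth muscle and all 6 epithelial markers were lower in Ednrb null than in Ednrb NCC null. Of these, 2 smooth muscle and 3 epithelial markers were called. The log2 summed intensity of the smooth muscle markers was 14.97 to 15.35 in Ednrb null, 15.51 to 15.71 in Ednrb NCC null and 15.24 to 15.44 in wild type, and that of the epithelial markers 14.11 to 14.57, 14.75 to 14.93 and 14.39 to 14.50 in the same groups. In both lists the Ednrb NCC null arrays were above all others, as they were for Bmp2, and the part of this in the result was not tested.

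Beside the higher Inhba of Ednrb null, 2 of 4 cartilage markers and 2 of 3 measured red blood cell markers were higher in Ednrb null than in Ednrb NCC null. The red blood cell markers called were the globin genes Hbb-bh1, by 1.13, and Hba-x, by 1.14. The other, Alas2, differed by -0.05 and was not called. In Ednrb NCC null against wild type, Hbb-bh1 was called higher, by 1.02 (limma adjusted p = 0.00369), and Hba-x came to -0.35 (adjusted p = 0.264). The log2 summed cartilage level was 10.57 to 10.85 in Ednrb null, 9.84 to 10.19 in Ednrb NCC null and 9.95 to 10.32 in wild type, and the cartilage markers Matn1 and Acan were dim, at mean log2 intensities of 3.36 and 5.51. The log2 summed level of the red blood cell markers, of which Hba-x was the brightest, was 12.45 to 12.70, 11.40 to 11.79 and 11.52 to 11.89 in these groups. Beside the lower Bmp4 of Ednrb NCC null against wild type, 1 of 7 mesenchymal markers was called, Foxf2, with a mean of 9.20 over Ednrb null arrays, 8.44 over Ednrb NCC null arrays and 9.24 over wild type arrays. The log2 summed mesenchymal level was 14.23 to 14.37 in Ednrb null, 13.90 to 14.20 in Ednrb NCC null and 14.03 to 14.30 in wild type. Wild type overlapped both mutants, and the mutants did not overlap each other. Between the mutants, where Bmp4 was also called, all 7 mesenchymal markers were higher in Ednrb null. Of these, Foxf2 was called (log2 difference 0.76, limma adjusted p = 0.0267). Against wild type, all 6 epithelial markers were higher in Ednrb NCC null. Of these, 2 were called, Vil1 by 0.99 (limma adjusted p = 0.0278) and Krt8 by 0.45 (adjusted p = 0.0385). All 6 mesothelial markers were also higher, and 1 was called, Msln, by 0.99 (adjusted p = 0.0274). Of 5 macrophage markers 4 were higher, and 1 was called, Mrc1, by 0.68 (adjusted p = 0.0189). The part of these markers in the results was not tested.

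Wild type 1B was the lowest array for 5 of the 6 mesothelial markers. Their median log2 difference was 0.90 in Ednrb null, with 0 of 6 called and 3 of 6 at an unadjusted p under 0.05 by limma, and 1.09 in Ednrb NCC null, with 1 of 6 called. Averaged as log2 values, the 6 markers stood at 9.32 to 9.63 in Ednrb null, 9.75 to 9.93 in Ednrb NCC null and 7.52, 9.32 and 9.08 in wild type 1B, 1C and 1D. Their summed level was 12.76 to 13.18, 13.31 to 13.47 and 12.59 to 12.91 in these genotypes. Without wild type 1B, the calls of Id4, Rgma (-0.42, adjusted p = 0.0682), Rgmb (-0.56, adjusted p = 0.0847) and Gdf10 (adjusted p = 0.128) in Ednrb null against wild type were lost, and Bmp7 1432410_a_at passed in Ednrb NCC null. The calls of Inhba, Bmp2, Bmp4 and Bmp7 1418910_at held without it. The part of the mesothelium in these results was not tested.

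The 3' to 5' log2 ratio of the Actb control probe sets, a measure of RNA integrity, averaged 0.87 ± 0.06 over Ednrb null arrays, 1.21 ± 0.18 over Ednrb NCC null arrays and 1.18 ± 0.13 over wild type arrays (SD, n = 3). All Ednrb null arrays, at 0.80 to 0.90, lay below the others, at 1.03 to 1.40 in Ednrb NCC null and 1.08 to 1.32 in wild type. The ratio thus cannot be told apart from the Ednrb null genotype, and a call lost with the covariate cannot be laid to either. With this ratio as a covariate, Inhba differed by 1.12 between Ednrb null and wild type (limma adjusted p = 0.0745) and kept its call between the mutants. Bmp4 kept its call in Ednrb NCC null against wild type. The same covariate left Bmp7 1418910_at at -0.53 in Ednrb null against wild type (adjusted p = 0.172) and the mutants apart by -0.98 for Bmp2 (adjusted p = 0.155) and by 0.48 for Bmp4 (adjusted p = 0.192). Id4 was then at -0.51 (adjusted p = 0.459) and Gdf10 at -0.66 (adjusted p = 0.641) in Ednrb null against wild type. In that comparison Rgma was at -0.30 (adjusted p = 0.507) and Rgmb at -0.42 (adjusted p = 0.546). Between the mutants, Gdf10 was at -0.63 (adjusted p = 0.63) and Rgmb at -0.49 (adjusted p = 0.439).

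Among the members' brightest probe sets, Bmp7 and Inhba were most alike over the 9 arrays (Pearson r = 0.833) and Bmp2 and Inhba most opposed (r = -0.837). These values describe 9 arrays that share 3 genotypes. Of 1411 or 1412 variable genes in the upper 60% of brightness, those most like Bmp2 were Usp43, Sh2d4a and Cnn1, with r of 0.962, 0.959 and 0.953. Those most like Bmp4 were H2az2, Pltp and Tmem131l, with r of 0.937, 0.937 and 0.935. For Inhba they were Cd55, Scn3a and Zfp945, at 0.958, 0.947 and 0.942, and for the brightest probe set of Bmp7 Zfp521, Prdm6 and Dpysl4, at 0.963, 0.953 and 0.93.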

How the data were processed

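The authors deposited 1 intensity per probe set and array. The submitters' processing notes name RMA, and no source used here gives its version, software or chip definition. The values were on the linear scale, from 5.69 to 61637, and were converted to log2 with no pseudocount or further normalization. RMA shrinks small and dim differences, and array number limits the precision. The 64 control probe sets were left out. Genes were named from the platform's gene table, and all 10 members matched the RefSeq table of GRCm38.p6 by Entrez ID. A mean per group was fitted over 9 arrays with limma 3.58.1 (lmFit, eBayes) in R 4.3.3, 2-sided, with Benjamini-Hochberg over 45037 probe sets. Each other pathway gene was counted by its brightest probe set. Named genes were every member, the called pathway genes and a few with the smallest p. Genes alike in pattern were sought among brightest probe sets in the upper 60% of brightness with an SD of at least 0.3. The model was tested on simulated data, with the comparisons in the order used above. It recovered 38.8%, 52.2% and 50.7% of 1.5-fold changes and 94%, 86.6% and 92.5% of 2-fold changes. A change of 1.5-fold could thus go uncalled. Members and lists were chosen with earlier results of these data known.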

Additional observations from a re-analysis of the deposited data

How the results depend on the processing

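The member count in Ednrb null against wild type, 2, was 1 with quantile normalization, with only the 2 groups compared and with the brightest probe set of each gene, and 0 once the Actb ratio entered as covariate. In Ednrb NCC null it was 2, and 1 with the brightest probe sets, since Bmp7 1418910_at is then not tested. It was 3, with Bmp7 1432410_a_at added, without the dimmest 40%, with trend and robust, with array weights or with the Actb ratio, and 3 at an adjusted p under 0.10. Between the mutants it was 3, and 1 with the Actb ratio. Leaving out 1 array gave 1 to 2, 2 to 3 and 2 to 3 calls in these comparisons. The count of other pathway genes, 4, 0 and 2, was 0 with the Actb ratio for Ednrb null against wild type, and also 0 between mutants. In Ednrb NCC null it was 2 without the dimmest 40% of probe sets, with array weights or at an adjusted p under 0.10, and 1 with the brightest probe sets or the Actb ratio. Without 1 array these counts were 0 to 7, 0 to 1 and 0 to 3. No called difference changed sign in any alternative run. The share of all probe sets called under each setting is not given here. A change in these counts thus cannot be told from a change across the whole array. The cause of each change was not tested, except where named. No paired analysis was possible because the groups share no replicate numbers. Dim probe sets, such as those of Nog and the dimmer one of Inhba, limit what could be seen.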
